A study of Homo sapiens with 9 samples.

Results

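The genes described here encode the proteasome and the proteins that activate, inhibit and assemble it. They were chosen by symbol: every protein-coding gene whose symbol begins with PSM, then A, B, C, D, E, F or G, then a digit. That rule matched 101 of the 78894 Ensembl identifiers in the expression tables, of which 51 were pseudogenes, antisense RNAs or other genes that are not protein coding, and 50 were kept. The 50 comprised 31 constitutive subunits, 5 immunoproteasome and PA28 genes, 2 other activators, 1 inhibitor, 7 assembly chaperones, 2 genes restricted to germ line or thymus, and 2 genes that share the symbol pattern but encode no part of the particle (PSMC3IP and PSME3IP1).

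The proteasome is the protease that degrades proteins tagged with ubiquitin. Its 20S core is a barrel of alpha rings, which gate the entrance, around beta rings, in which PSMB5, PSMB6 and PSMB7 carry the active sites. The 19S cap, with a ring of ATPases (PSMC genes) and a set of non-ATPase subunits (most PSMD genes), recognises and unfolds substrates. In cells exposed to interferon-gamma, PSMB8, PSMB9 and PSMB10 replace PSMB5, PSMB6 and PSMB7 respectively in newly built particles, which are then called immunoproteasomes, and the PA28 activator made of PSME1 and PSME2 is produced alongside them. Immunoproteasomes are known for supplying peptides to HLA class I.

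RNA was sequenced from CAL27, an established line derived from a tongue squamous carcinoma, grown without treatment. The study is about an enhancer with a role in this class of carcinoma. Its groups are Control CAL27 cells (3 samples) and CRISPR-edited cells named A2ko, A8ko and C9ko (2 samples each). The labels name neither the edited sequences nor whether a group was cloned or pooled, so no target gene could be checked, and the labels do not say that samples of a group came from separate cultures, so p-values measure only the spread between these samples. The 2 A2ko tables were identical in every value, as were the 2 A8ko tables, so each pair was counted as 1 library. Of the 7 distinct libraries, 3 were Control, 2 were C9ko, and A2ko and A8ko had 1 each. A2ko and A8ko therefore have no replicates and no p-values. Levels are TPM, a transcript's share of its library scaled for gene length. TPM carries no record of depth.

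The 10 markers of squamous epithelium were expressed in all libraries, from KRT5, a basal keratin, at 3081 TPM or more down to DSG3 at 11.3 to 39.0 TPM. Their summed level was 16929 to 17983 TPM in Control, 6980 in A2ko, 8155 in A8ko and 10601 to 10725 in C9ko. They did not move together. KRT5, KRT14, KRT6A and DSG3 lay below every Control library in all knockout libraries, whereas CDH1 lay above in all. In C9ko 4 of the 10 lay above Control and 4 below. Of 10 leukocyte markers, included because leukocytes carry immunoproteasomes, 6 did not reach the detection filter, MS4A1 was listed at 0 everywhere and PTPRC, which defines leukocytes, did not exceed 0.023 TPM. The summed leukocyte list was 71.5 to 83.6 TPM in Control, 84.5 in A2ko, 144 in A8ko and 148 to 160 in C9ko, nearly all of it from CD14, CD68 and HLA-DRA. Of 6 fibroblast markers 3 passed the filter, COL3A1 was listed at 0, and the sum was 10.8 to 12.2 TPM in Control, 17.7 in A2ko, 7.36 in A8ko and 11.02 to 11.8 in C9ko. Of 4 endothelial markers only CDH5 passed, KDR was listed at 0, and the sum was 3.51 to 4.55, 12.8, 8.63 and 22.2 to 30.1 TPM in the same order. Whether these shifts have a part in the results below was not tested.

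Promoter sequences are shown first, because 4 of the 5 immunoproteasome and PA28 genes share an exact stretch. It was in none of the 26 constitutive subunits searched. Windows of 300 bases, from 250 before to 50 after an annotated start, were taken from RefSeq (GRCh38.p14), and 44 of the 50 genes had one. The constitutive genes without a window included PSMB6 and PSMB7, so those were not searched. The capitals mark GAAANNGAAA, the core of the element bound by interferon regulatory factors, on either strand. Each line gives the 60 bases (66 for TAP1) around the match, 5′ to 3′ along the gene.
PSMB8, chr6:32844032-32844091, minus strand: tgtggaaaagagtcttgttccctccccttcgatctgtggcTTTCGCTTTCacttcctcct
PSMB10, chr16:67936852-67936911, minus strand: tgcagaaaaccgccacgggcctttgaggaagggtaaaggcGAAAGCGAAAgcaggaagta
PSME1, chr14:24136159-24136218, plus strand: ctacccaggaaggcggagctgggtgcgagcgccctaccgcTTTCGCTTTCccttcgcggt
PSME2, chr14:24146619-24146678, minus strand: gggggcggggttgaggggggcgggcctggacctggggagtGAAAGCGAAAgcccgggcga
PSMG4, chr6:3258874-3258933, plus strand: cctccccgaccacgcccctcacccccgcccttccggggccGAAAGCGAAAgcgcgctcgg
TAP1, chr6:32853813-32853878, minus strand: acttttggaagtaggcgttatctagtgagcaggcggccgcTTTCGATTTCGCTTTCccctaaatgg

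GAAANNGAAA was found in PSMB8, PSMB10, PSME1 and PSME2 but not in the PSMB9 window, that is in 4 of 5 genes, against 4.38% of 27305 genes with a window. Among the 26 constitutive subunits with a window it was found in 2 (PSMA4 and PSMB4). The particular letters GAAAGCGAAA were chosen because at least 4 of these 5 genes hold them, and GAAANNGAAA was written from that word. A count of at least 4 of 5 was therefore fixed by the choice, and the shares over all genes beside it are no test. The word occurred in the same 4 genes and in the assembly chaperone gene PSMG4. Over all genes with a window, 34 (0.125%) held the word, and none of the 26 constitutive subunits with a window did. PSMB9 is transcribed away from the peptide transporter gene TAP1, whose nearer annotated start lies 488 bases away. TAP1 had 2 windows. The window at the nearer start held 2 overlapping matches, 1 of them the exact word, and the other window held none. CCAAT was found in 1 of 5 (PSMB9) and in 15 of 26 constitutive genes (57.7%), against 39.7% of all genes. Both strands were searched for each motif, and a gene with more than 1 window was counted when any of them matched. A match describes letters in a window and is not evidence of binding.

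All 50 genes together took 0.990% to 1.05% of a Control library's TPM, with 0.880% for A2ko, 1.03% for A8ko, and 0.943% and 0.984% for C9ko. With mitochondrial transcripts left out of the total, the shares were 1.35% to 1.37% in Control, then 1.18% in A2ko and 1.30% in A8ko, with 1.18% and 1.20% in C9ko. On that second scale all 4 knockout libraries lay below every Control library. In bulk RNA, fewer cells with a transcript and less of it per cell cannot be told apart. Mitochondrial transcripts took 23.1% to 26.9% of the TPM in Control, 25.2% in A2ko, 20.6% in A8ko and 17.9% to 20.2% in C9ko.

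Mean Control levels ran from 775 TPM for PSMB7 to 52.1 TPM for the 19S subunit PSMD12 among the 31 constitutive genes, a 14.9-fold range. The median was 327 TPM for the 14 constitutive 20S genes and 150.01 TPM for the 17 19S genes. Assembly chaperones were lower, at a median of 69.9 TPM. PSMA8, an alpha subunit of the testis, was listed at 0 in all libraries, and PSMB11, the catalytic subunit of the thymus, did not exceed 0.031 TPM. The other 48 genes all reached the filter of 1 TPM in at least 2 distinct libraries and were among the 17100 genes tested.

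In C9ko the catalytic subunits moved apart: PSMB9 rose while PSMB5 and PSMB6, the active sites for which PSMB8 and PSMB9 substitute, fell. PSMD6, a 19S subunit, rose most of all members. The proteasome inhibitor PSMF1 and the chaperones PSMD9, PSMG2 and PSMG4 also rose. By limma's moderated test on log2(TPM + 1), with Benjamini-Hochberg adjusted p under 0.05 over all genes, 16 of 48 members were called, 7 higher and 9 lower. The background in that comparison was 29.5% of tested genes called, 22% higher and 7.42% lower.

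The split between higher and lower depends on how libraries are scaled. TPM left the median tested gene 0.12 (A2ko), 0.09 (A8ko) and 0.11 (C9ko) log2 units above Control. Median-of-ratios scaling, which brings those medians close to 0, called 28 members in C9ko, 6 higher and 22 lower. Over all 17100 tested genes it called 4813, 2626 higher and 2187 lower. The higher share of the calls among members was thus 21.4% in place of 43.8%. Over all called genes that share was 54.6% in place of 74.8%. Scaling to the TPM outside mitochondrial genes called 26 members and 4777 of 17063 tested genes, with 23.1% higher among members and 60.7% over all called genes. The count of members was 10 without Control 1 and 9 without Control 3, where 4174 and 3874 of 17100 tested genes were called. PSMD6, PSMF1 and PSMG4 were called in 13 of 13 alternative settings, PSMB6 in 12, PSMB9, PSMD9 and PSMG2 in 11, and PSMB4 and PSMB5 in 9, whereas the other 7 were called in 3 to 6.

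**Figure D1:**
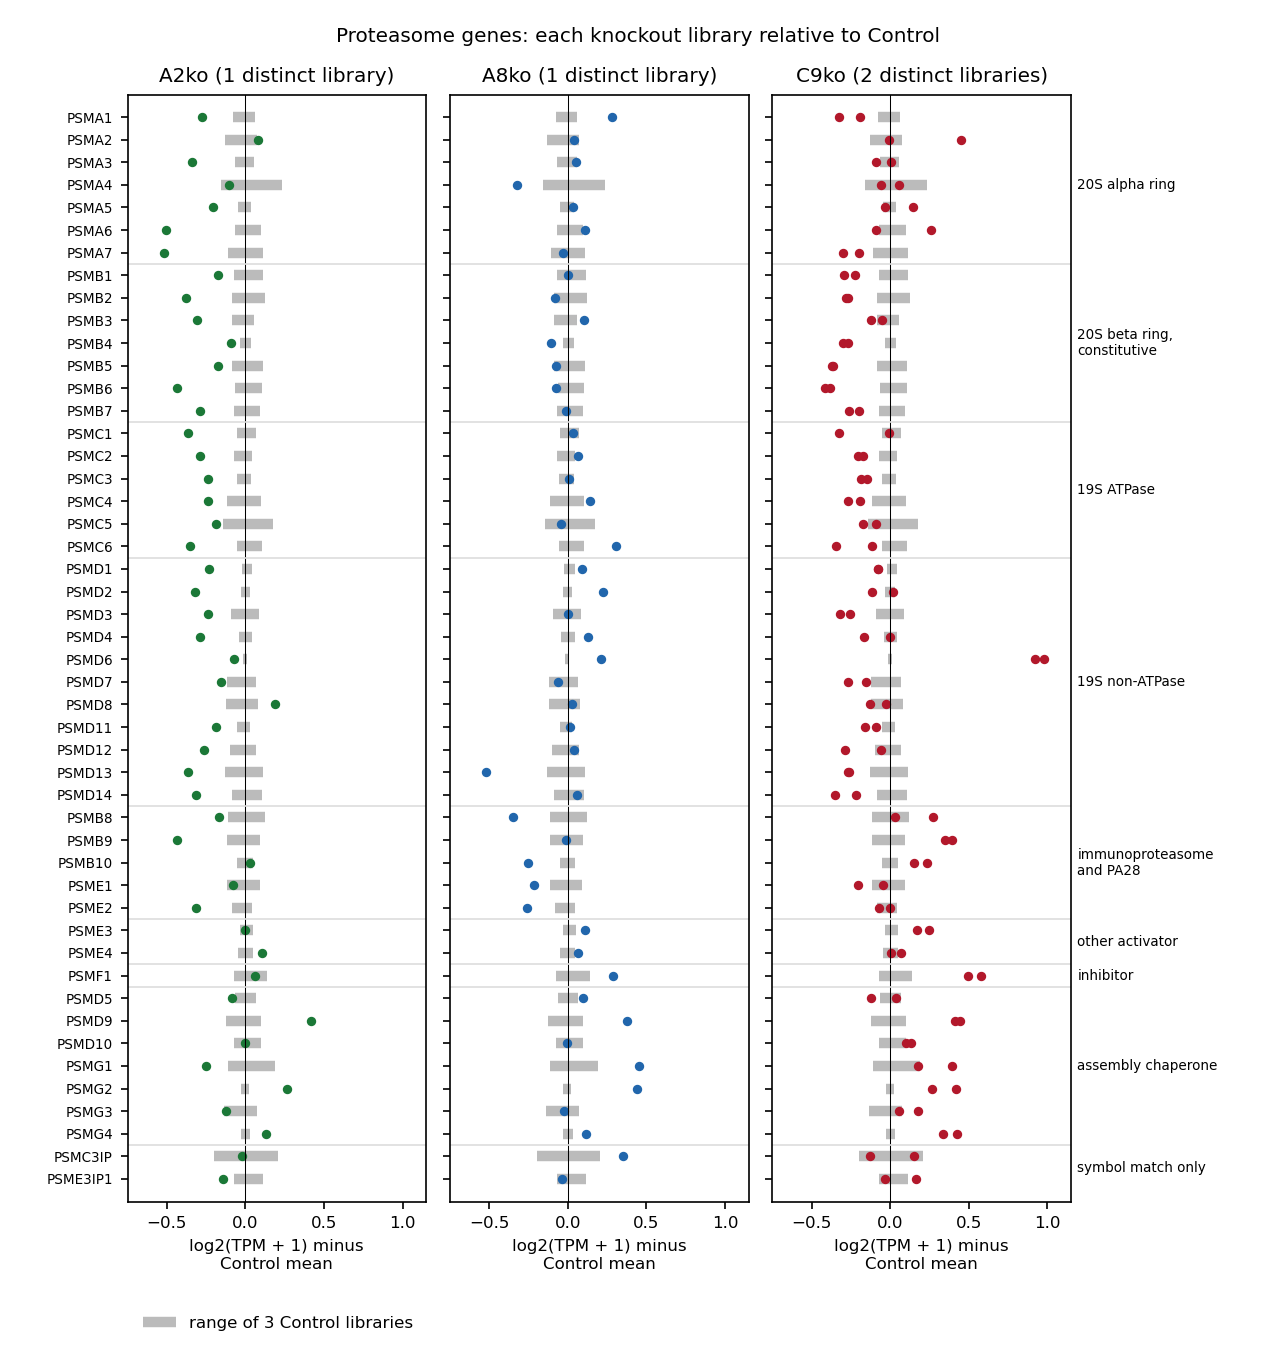
Log2(TPM + 1) of each knockout library minus the Control mean (x axis) for the 48 tested genes, grouped by role; grey bars span the 3 Control libraries and each dot is 1 distinct library. In A2ko 28 of 31 constitutive subunits lie left of the grey bar, in C9ko PSMD6 stands at the far right, and in A8ko PSMD13 is at the far left.

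Among the 7 alpha-ring genes, PSMA1 alone was called in C9ko, where 29.5% of all tested genes were. Its level was 368, 345 and 380 TPM in Control 1, 2 and 3, 299.9 in A2ko, 442 in A8ko, with 319 and 290.3 in C9ko. It thus lay below Control in A2ko and C9ko and above Control in A8ko, and its fall in C9ko was 0.26 log2 units (standard error 0.07, limma adjusted p = 0.0408). PSMA6 was at 309, 283 and 275 TPM in Control, then 203 in A2ko and 312 in A8ko, with 272 and 346 in C9ko. PSMA7, the most abundant alpha subunit, was at 568, 487 and 524 TPM in Control, then 366 in A2ko and 515 in A8ko, with 426 and 458 in C9ko. These were the 2 members of 48 that lay outside the Control range and at least 0.5 log2 units from the Control mean in A2ko, at -0.51 and -0.52 from that mean, and without Control 1 neither difference reached 0.5. By the same criterion 22.8% of all tested genes were counted in A2ko, 6.26% as lower.

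The beta ring had the largest share of lower calls in C9ko. PSMB1, PSMB2, PSMB4, PSMB5 and PSMB6, 5 of the 7 constitutive beta genes, fell, and none rose, against 7.42% and 22% of all tested genes. PSMB5, the chymotrypsin-like active site (chr14:23016543-23035230 in GENCODE v29, minus strand), was at 254, 244 and 279 TPM in Control, then 229 in A2ko and 245 in A8ko, with 200.2 and 201 in C9ko. Its fall in C9ko was 0.37 log2 units (standard error 0.07, limma adjusted p = 0.0113), and both C9ko libraries lay below every Control library. PSMB6, the caspase-like active site, was at 315, 319.5 and 353 TPM in Control, then 243 in A2ko and 311 in A8ko, with 246 and 252 in C9ko. All 4 knockout libraries were below the lowest Control, and the C9ko fall was 0.40 (standard error 0.07, limma adjusted p = 0.00714). PSMB7, the trypsin-like active site, was at 826, 761 and 738 TPM in Control, then 635 in A2ko and 766 in A8ko, with 674 and 645 in C9ko. Its C9ko difference of -0.23 log2 units did not pass (limma adjusted p = 0.0612), although both C9ko libraries were below Control.

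PSMB4, a structural beta subunit, lay below every Control library in all 4 knockout libraries, at 546 TPM in A2ko, 541 in A8ko, with 482 and 472 in C9ko against 568, 580.2 and 597 in Control. It was chosen after its values were seen. PSMB2, the least abundant of this ring, was at 212, 189 and 183 TPM in Control and 159.5 and 161 in C9ko (difference -0.28, standard error 0.08, limma adjusted p = 0.0368).

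None of the 6 ATPase genes was called in C9ko, where 29.5% of all tested genes were. An unadjusted p under 0.05 was found for 4 of them and for 41.6% of all tested genes. Both C9ko libraries were below Control for 4 of them and for 16.4% of all tested genes. PSMC3, the most abundant, was at 199, 212 and 208 TPM in Control, then 175 in A2ko and 207 in A8ko, with 181 and 186 in C9ko. PSMC1, the least abundant, was at 61.1, 56.1 and 57.3 TPM in Control and 57.8 and 46.1 in C9ko, so its C9ko libraries straddled the lowest Control value. A pseudogene of it, PSMC1P1, was listed at 11.7 to 16.2 TPM, so reads may be divided between them.

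Of the 11 non-ATPase genes of the cap, 1 rose and 3 fell in C9ko, against 22% and 7.42% of all tested genes. PSMD6 (chr3:64010549-64024010, minus strand) was at 64.5, 63.5 and 64.7 TPM in Control, then 61.0 in A2ko and 74.6 in A8ko, with 123 and 128 in C9ko. The Control libraries were close together, and both C9ko values were far above them, a rise of 0.95 log2 units (standard error 0.06, limma adjusted p = 8.2e-05). PSMD3, PSMD13 and PSMD14, the last being the deubiquitinase of the cap, fell by 0.29, 0.27 and 0.29 log2 units (limma adjusted p = 0.0250, 0.04999 and 0.0369). PSMD2, the ubiquitin-receptor scaffold and the most abundant gene of the cap, was at 388, 379 and 394 TPM in Control, then 309.8 in A2ko and 451 in A8ko, with 356 and 391 in C9ko. Its C9ko values overlapped Control, whereas A2ko was below and A8ko above.

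PSMD13 was the single member of 48 outside the Control range and at least 0.5 log2 units from the Control mean in A8ko, where 18.9% of all tested genes did, 10.4% as higher and 8.47% as lower. It was at 195, 176 and 209 TPM in Control, then 149.7 in A2ko and 134 in A8ko, with 160.4 and 160.3 in C9ko. All 4 knockout libraries lay below Control, and the A8ko difference from the Control mean was -0.52. Without Control 3 it no longer reached 0.5, and without Control 1 a second member did. PSMD13 overlaps SIRT3 on the other strand, and whether the counting used strand is not given in the sources used here.

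In A2ko the constitutive genes lay low as a group. Below every Control library were 28 of 31, including all 7 beta and all 6 ATPase genes, and 2 (PSMA2 and PSMD8) lay above, against 26.3% below and 50.4% above over all tested genes. The group's median difference was -0.26 log2 units, -0.39 after median-of-ratios scaling and -0.25 without mitochondrial genes. In A8ko 10 of the 31 lay above and 4 below (46.9% and 26.4% over all genes), with a median of 0.03. That balance turned with the scaling, to 4 above and 20 below with a median of -0.07 after median-of-ratios scaling, and to 5 above and 13 below with a median of -0.04 without mitochondrial genes. In C9ko 18 of 31 had both libraries below every Control library and 1 had both above, against 16.4% and 41.1% of all genes, with a median of -0.17 in TPM, -0.30 after median-of-ratios scaling and -0.27 without mitochondrial genes. The mean TPM per 19S gene was divided by the mean TPM per 20S gene. That ratio was between 0.428 and 0.447 in Control, then 0.451 in A2ko and 0.456 in A8ko, with 0.451 and 0.457 in C9ko. The knockout libraries were thus just above the highest Control ratio, with log2 differences from the Control mean of 0.04, 0.05 and 0.05 for A2ko, A8ko and C9ko.

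The immunoproteasome genes were well expressed in unstimulated Control cells. PSMB9, the counterpart of PSMB6 (chr6:32844136-32859585, plus strand), was at 152, 138 and 159.8 TPM in Control, then 110.5 in A2ko and 148 in A8ko, with 191 and 197 in C9ko. It was below Control in A2ko, within the Control range in A8ko and above it in both C9ko libraries. The rise in C9ko was 0.37 log2 units (standard error 0.08, limma adjusted p = 0.0124), the A2ko difference was -0.43, and without C9ko 2 the C9ko adjusted p was 0.0684. GENCODE v29 places PSMB9 across parts of PSMB8 and TAP1 on the other strand, where reads cannot be assigned without strand, and of PSMB8-AS1 on the same strand, where strand would not help.

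PSMB8, the counterpart of PSMB5, was at 176, 163 and 192 TPM in Control, then 157 in A2ko and 139 in A8ko, with 214 and 180.4 in C9ko. A2ko and A8ko were below Control, by 0.17 and 0.35 log2 units, while C9ko overlapped it (0.15, standard error 0.10, limma adjusted p = 0.299). PSMB10, the counterpart of PSMB7, was at 128, 124 and 133 TPM in Control, then 131 in A2ko and 107 in A8ko, with 142 and 151 in C9ko. Both of its C9ko libraries were above every Control library, but the difference of 0.19 (standard error 0.06) did not pass (limma adjusted p = 0.0622), and A8ko was below at -0.26.

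The PA28 genes did not follow PSMB9 and PSMB10. PSME1 was at 482, 418 and 459.8 TPM in Control, then 428 in A2ko and 389.8 in A8ko, with 392 and 437 in C9ko (C9ko difference -0.13, standard error 0.09, limma adjusted p = 0.308). PSME2 was at 583, 585 and 535 TPM in Control, then 456 in A2ko and 473 in A8ko, with 539 and 567 in C9ko (C9ko difference -0.04, standard error 0.07, limma adjusted p = 0.721). Both C9ko libraries of PSME2 lay inside the Control range, and A2ko and A8ko lay below it by 0.31 and 0.26. With median-of-ratios scaling the PSME1 difference in C9ko was -0.26 and passed (limma adjusted p = 0.0257). Pseudogenes of PSME2 were listed at up to 11.7 TPM, so its value is uncertain by that order.

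The genes whose printed windows hold GAAAGCGAAA did not move as one. In A8ko PSMB8, PSMB10, PSME1 and PSME2 lay below every Control library, with differences of -0.35 to -0.21 log2 units, whereas PSMG4 (0.12) and TAP1 (0.23) lay above it, and PSMB9, which lacks the word, lay within the Control range (-0.01). Over all tested genes 26.4% lay below every Control library in A8ko and 46.9% above. In C9ko PSMG4 and TAP1 rose, PSMB10 lay above Control without passing, and PSMB8, PSME1 and PSME2 overlapped Control in TPM. The 5 immunoproteasome and PA28 genes had a median of -0.17 for A2ko, -0.26 for A8ko and 0.15 for C9ko, and after median-of-ratios scaling -0.30, -0.36 and 0.02.

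**Figure D2:**
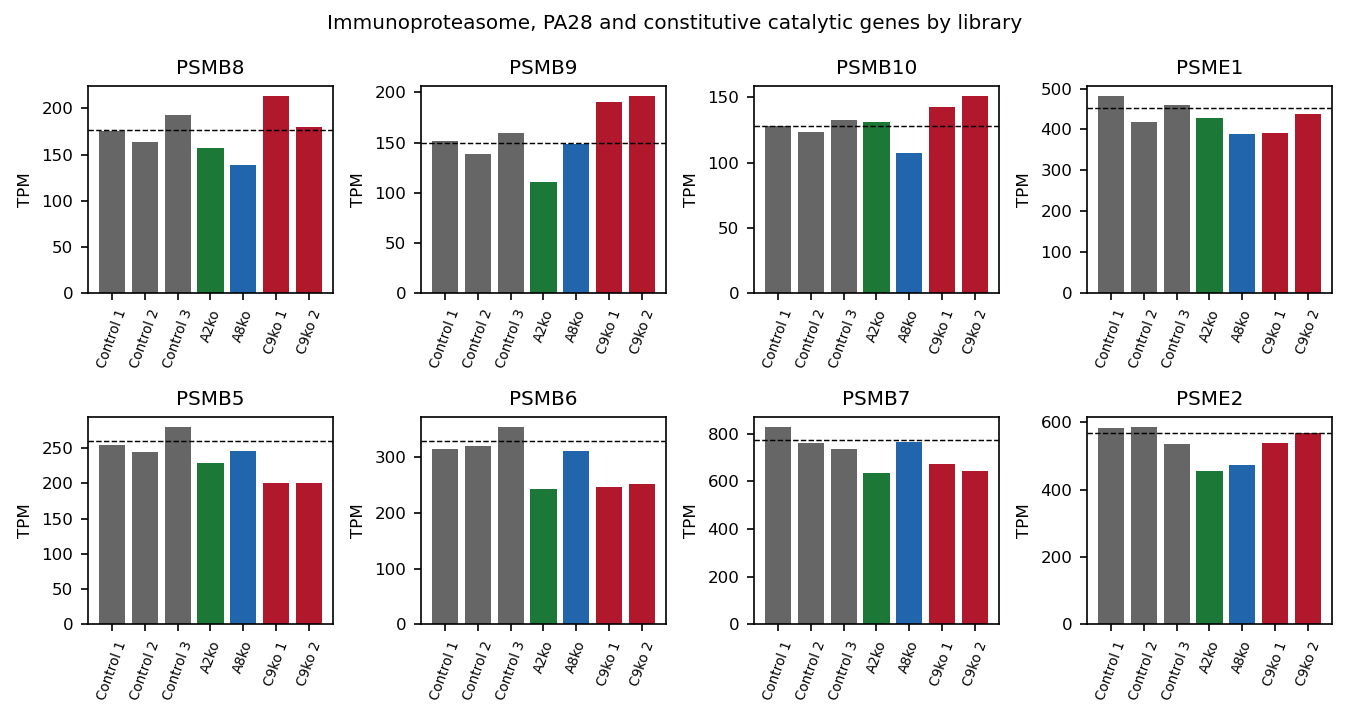
TPM (y axis, from 0) of the 3 immunoproteasome catalytic genes, the 3 constitutive catalytic genes and the PA28 genes in each of 7 distinct libraries (x axis); the dashed line is the Control mean. PSMB9 is highest in both C9ko libraries, where PSMB5 and PSMB6 are lowest or nearly so.

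A ratio taken inside a library does not depend on how that library is scaled. PSMB8, PSMB9 and PSMB10 together made up 24.6%, 24.3% and 26.1% of the summed TPM of the 6 catalytic genes in Control, then 26.5% in A2ko and 22.9% in A8ko, with 32.8% and 32.5% in C9ko. Both C9ko libraries were above all others, A2ko was just above the highest Control, and A8ko was below the lowest. On the log2 scale the ratio of the 3 immunoproteasome genes to PSMB5, PSMB6 and PSMB7 differed from Control by 0.54 in C9ko, 0.11 in A2ko and -0.16 in A8ko, with a Control SD of 0.075 (n = 3). No test was made of a score over members.

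Each pair contributed in C9ko. PSMB8 was 40.1% to 40.8% of PSMB8 plus PSMB5 in Control, then 40.7% in A2ko and 36.1% in A8ko, with 51.6% and 47.3% in C9ko. PSMB9 was 30.2% to 32.5% of PSMB9 plus PSMB6 in Control, then 31.2% in A2ko and 32.2% in A8ko, with 43.6% and 43.8% in C9ko. PSMB10 was 13.4% to 15.2% of PSMB10 plus PSMB7 in Control, then 17.1% in A2ko and 12.3% in A8ko, with 17.4% and 18.985% in C9ko. In A2ko the low PSMB9 was thus matched by a low PSMB6, and their ratio stayed inside the Control range. In A8ko the pairs of PSMB8 and PSMB10 lay below the Control range and that of PSMB9 within it. When all 5 immunoproteasome and PA28 genes were set over all 31 constitutive subunits, the C9ko difference was smaller, 0.24, the A2ko difference was 0.05 and the A8ko difference was -0.24.

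**Figure D3:**
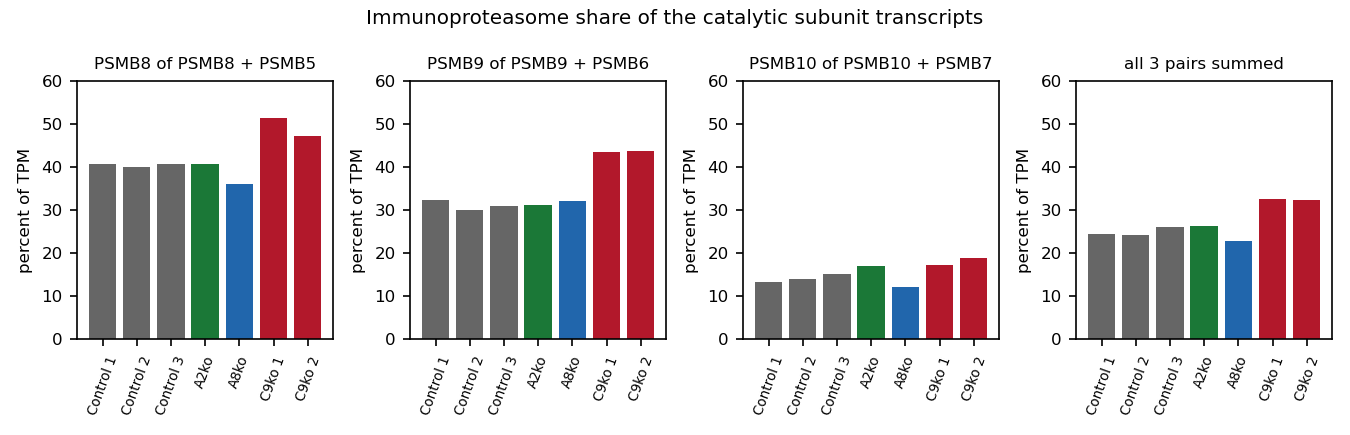
Share of TPM (percent, y axis) taken by the immunoproteasome gene in each catalytic pair, and by all 3 together, in 7 distinct libraries (x axis). The C9ko bars of the summed share, 32.8% and 32.5%, stand above the Control bars of 24.3% to 26.1%.

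Of the remaining activators, PSME3 (PA28 gamma, a nuclear activator) rose in C9ko from 123 to 130.2 TPM in Control to 141 and 149 (difference 0.21, standard error 0.06, limma adjusted p = 0.0458). That call held in 3 of 13 alternative settings. PSME4 (PA200) was at 33.2 to 35.6 TPM in Control and 34.5 to 37.0 in the knockouts, a C9ko difference of 0.04 (limma adjusted p = 0.702). The inhibitor PSMF1, also called PI31 (chr20:1113263-1189415, plus strand), was at 56.6, 48.997 and 48.8 TPM in Control, then 53.6 in A2ko and 62.8 in A8ko, with 72.6 and 77.1 in C9ko. A8ko and both C9ko libraries were above Control, and the C9ko rise was 0.53 log2 units (standard error 0.08, limma adjusted p = 0.00409).

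Of the 7 assembly chaperones, which build the rings and cap and leave the finished particle, 3 rose in C9ko and none fell. Among all tested genes 22% were called higher there and 7.42% lower. PSMD9, a chaperone of the ATPase ring, was at 28.0, 23.9 and 26.6 TPM in Control, then 35.1 in A2ko and 34.2 in A8ko, with 35.0 and 35.9 in C9ko. All 4 knockout libraries were above every Control library, and the differences were 0.41, 0.38 and 0.43 log2 units for A2ko, A8ko and C9ko (C9ko standard error 0.08, limma adjusted p = 0.00909). PSMG2, a partner of PSMG1 in building the alpha ring, was at 86.9, 87.8 and 84.7 TPM in Control, then 104 in A2ko and 118 in A8ko, with 104 and 116 in C9ko. It too was above Control in all 4 knockout libraries (C9ko difference 0.34, standard error 0.07, limma adjusted p = 0.0105). PSMG4, the partner of PSMG3, was at 31.1, 30.6 and 31.9 TPM in Control, then 34.3 in A2ko and 33.9 in A8ko, with 42.1 and 39.6 in C9ko, again above Control throughout (C9ko difference 0.38, standard error 0.06, limma adjusted p = 0.00543). PSMG2 and PSMG4 were chosen after their values were seen.

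PSMG1 did not follow PSMG2. It was at 105.4, 87.5 and 85.4 TPM in Control, then 77.5 in A2ko and 127 in A8ko, with 104 and 121 in C9ko, so A2ko lay below, A8ko above and C9ko overlapped Control (limma adjusted p = 0.105). The 7 chaperones had a median of 0.00 for A2ko, 0.12 for A8ko and 0.28 for C9ko, and after median-of-ratios scaling -0.13, 0.02 and 0.15. PSMD9 overlaps WDR66 on the same strand, so strand could not separate their reads. PSMG2 overlaps SPIRE1 and CEP76 on the other strand, with the same limit as for PSMD13.

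To ask what the knockouts share, the 3 group means were set against the 3 Control libraries, with the spread between knockout groups as the error. limma called 0 of 48 members, against 1.03% of all tested genes, and 4 had an unadjusted p under 0.05 (PSMD9, PSMG2, PSMB6 and PSMD13), a smaller share than the 16.0% of all tested genes. Their adjusted p-values by limma were 0.119, 0.126, 0.295 and 0.168, for differences of 0.41, 0.35, -0.30 and -0.38 log2 units. PSMD9, PSMG2 and PSMG4 lay above Control in 4 of 4 knockout libraries, and PSMB4, PSMB6 and PSMD13 below in 4 of 4, against 17% and 4.61% of all tested genes. Without the group A2ko, PSMD9 and PSMG2 were called (limma adjusted p = 0.0437 and 0.0230), where 11.7% of all genes were. An average of the knockouts in the fit of all 4 groups, where the spread within groups is the error, called 9 members and 25.5% of all genes. Both shares of the 48 members were below those of all genes.

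Several members stood among neighbours on the chromosome that differed in the same direction. For each member the median difference of the 10 tested genes on either side was taken. In C9ko it ranged from -0.14 around PSMD8 to 0.51 around PSMD6, where 9 of 20 neighbours were called. Over all tested genes the C9ko median was 0.11, and 29.5% were called. PSMF1 had a neighbourhood median of 0.40 with 12 of 20 called, and PSMB8 and PSMB9, which share most of their neighbours, 0.46 with 12 and 11 called. By contrast PSMD9 (0.11, 1 called) and PSMG4 (0.10, 6 called) stood well above the genes around them. PSMB5 and PSMB6, which fell by 0.37 and 0.40, had neighbourhood medians of -0.08 and -0.07, below the 0.11 of all tested genes. Of the 20 neighbours of each, 4 and 3 were called lower, where 7.42% of all tested genes were. The part of the neighbourhood in these 2 falls was not tested.

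In A8ko the lowest neighbourhood medians were those of PSMD13 (-0.40, over 15 neighbours near the end of the chromosome arm) and PSMA4 (-0.39), and both members were low there themselves, PSMA4 at 198 TPM against 222, 235 and 292 in Control. PSMB8, lower in A8ko than PSMA4 in log2 difference (-0.35 and -0.32), had a neighbourhood median of 0.23, on the opposite side. The highest was that of PSMC6 (0.45), itself at 176 TPM against 153, 137 and 137 in Control. The part of the neighbourhood in these members' differences was not tested. PSMA4 and PSMC6 were chosen after their values were seen.

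**Figure D4:**
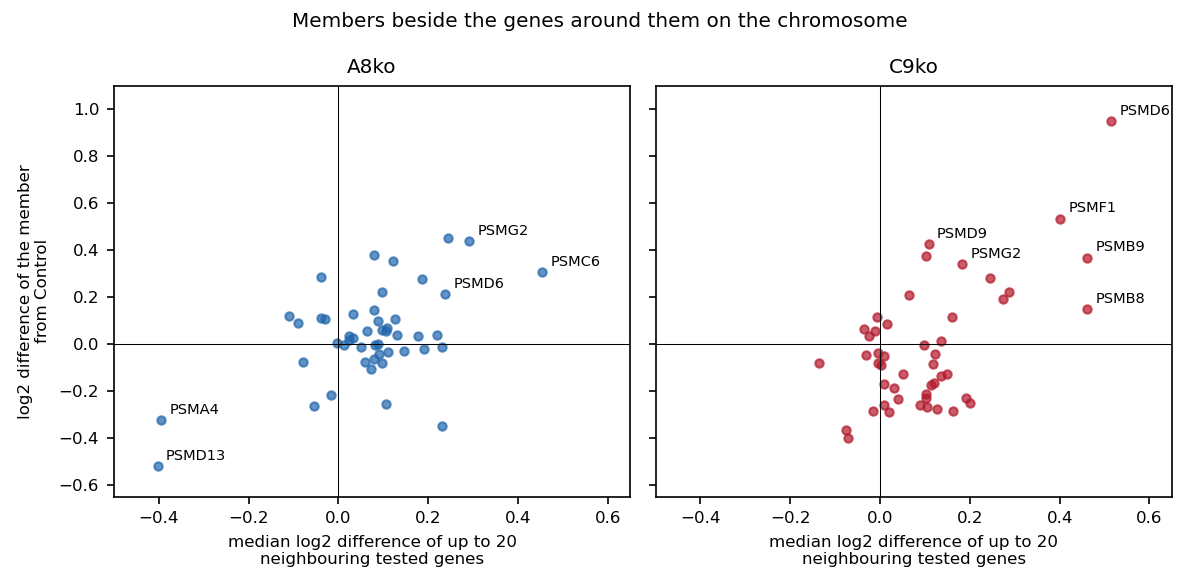
Log2 difference from Control of each tested member (y axis) against the median difference of up to 20 neighbouring tested genes (x axis), in A8ko and C9ko; each dot is 1 of 48 genes. PSMD6, PSMF1, PSMB8 and PSMB9 in C9ko lie among raised neighbours (0.40 to 0.51), and PSMD13 and PSMA4 in A8ko among lowered ones.

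Genes outside the symbol rule that serve the proteasome, 26 in all, moved in both directions. In C9ko 3 were called higher and 1 lower, smaller shares than the 22% and 7.42% of all tested genes. After median-of-ratios scaling 1 rose and 6 fell, where 2626 and 2187 of 17100 tested genes did. Their C9ko median of 0.08 turned to -0.05 after that scaling and to -0.02 without mitochondrial genes. NGLY1, the enzyme that removes sugars from NFE2L1, rose by 0.78 log2 units from 13.2 to 18.0 TPM in Control to 27.8 and 28.6 in C9ko (limma adjusted p = 0.00525). NFE2L1, the transcription factor that drives proteasome genes when proteasome activity is short, fell by 0.28 (limma adjusted p = 0.0134). Its levels were 123, 130.0 and 128 TPM in Control, then 143 in A2ko and 92.2 in A8ko, with 103 and 106 in C9ko, so A2ko was above Control and the other knockouts below. AKIRIN2, which brings proteasomes into the nucleus, and UBA6, a ubiquitin-activating enzyme, rose by 0.23 and 0.25. In A2ko 18 of the 26 helpers were below every Control library, against 26.3% of all tested genes, with a median of -0.15. The chaperone POMP, which matures the 20S core, was at 153 TPM there against 178 to 218 in Control.

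Most genes of peptide supply to HLA class I rose in C9ko, with 8 of 10 called higher and none lower and a median of 0.42 (7 and 0.29 after median-of-ratios scaling). Over all tested genes 22% were called higher and 7.42% lower in TPM, with a median of 0.11. TAP1, the neighbour of PSMB9, was at 113, 102 and 109.4 TPM in Control, then 97.9 in A2ko and 126 in A8ko, with 182 and 176 in C9ko. Its rise was 0.72 log2 units (standard error 0.07), beside 0.37 for PSMB9, and in A2ko both genes lay below Control. B2M, the light chain of HLA class I, rose by 0.61, PDIA3 by 0.51 and TAP2 by 0.47, while ERAP2 and TAPBPL did not pass.

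Of 20 genes of interferon signalling and its regulation, 17 were tested and 12 rose in C9ko, with none lower and a median of 0.45 (11 and 0.33 after median-of-ratios scaling). The shares over all tested genes were 22% higher and 7.42% lower in TPM, with a median of 0.11. Among the 12 were SOCS1, SOCS3 and PTPN2, which inhibit this signalling, and CIITA, the activator of HLA class II genes. IFNG itself was listed at 0 in every library. The interferon-gamma receptor genes IFNGR1 and IFNGR2 rose by 0.70 and 0.82, the kinase gene JAK2 by 1.06 and the HLA class I activator NLRC5 by 0.64. In A2ko and A8ko the differences were 0.275 and 0.72 for IFNGR2 and 0.39 and 0.70 for NLRC5. They were -0.21 and -0.37 for IFNGR1 and 0.05 and -0.10 for JAK2. Of the 17 genes, 7 lay above every Control library in all 4 knockout libraries, against 17% of all tested genes. IRF1, which activates the immunoproteasome genes, was at 126, 123 and 132 TPM in Control, then 75.7 in A2ko and 89.3 in A8ko, with 125 and 132 in C9ko. It was therefore within the Control range in C9ko and below it in A2ko and A8ko. Of the 5 immunoproteasome and PA28 genes, PSMB8 and PSME2 were below Control in both A2ko and A8ko, whereas PSMB10 and PSME1 were within the range in A2ko and PSMB9 in A8ko. IRF9 was at 6.25 to 13.4 TPM in Control, then 47.4 in A2ko and 4.003 in A8ko, with 13.4 and 13.8 in C9ko.

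**Figure D5:**
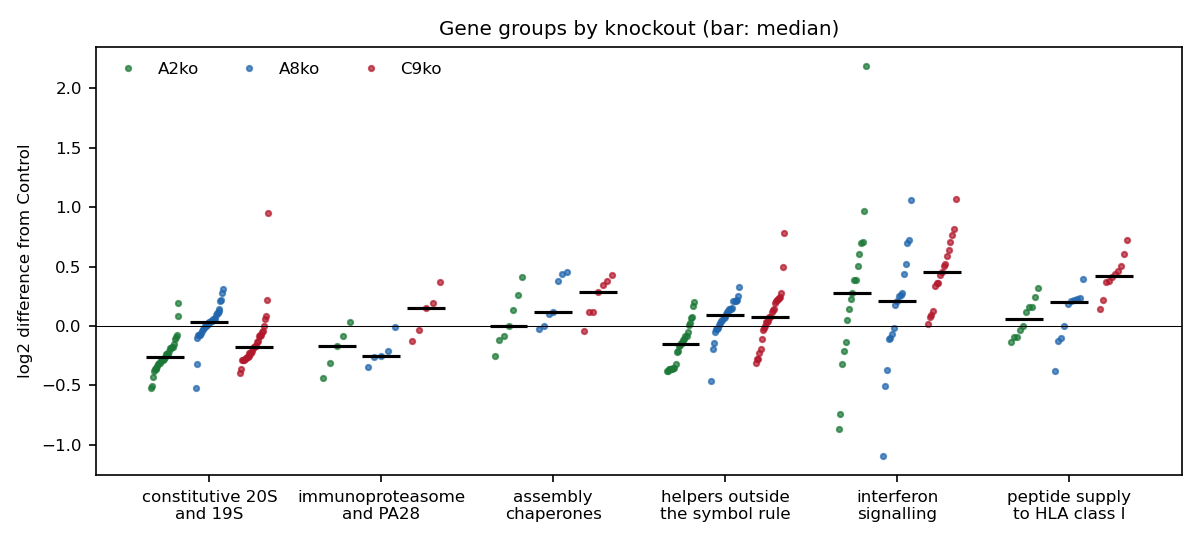
Log2 difference from Control (y axis) of single genes (dots) in 6 gene groups, for A2ko, A8ko and C9ko; black bars are medians. The constitutive median is lowest in A2ko (-0.26), and the peptide-supply and interferon-signalling medians are highest in C9ko (0.42 and 0.45).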

How the data were processed

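The authors deposited TPM per Ensembl gene for 9 samples; hg38 was the build per the submitters' processing notes, and per the labels' protocols polyA RNA was extracted with TRIzol and prepared by a dUTP method. Aligner, quantifier, annotation and use of strand are not given in the sources used here, and depth is unknown. Symbols were matched for 61463 identifiers, and positions and types came from GENCODE v29 for 57342.

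Genes at 1 TPM or more in at least 2 of 7 distinct libraries were analysed as log2(TPM + 1), a scale that understates changes of low genes. limma 3.58.1 (R 4.3.3, eBayes with trend) fitted all 4 groups, with Benjamini-Hochberg adjustment over 17100 genes and calls at 0.05, and its script was tested on simulated data. A2ko and A8ko were described against the range of the Control libraries, with a size rule of 0.5. Counts outside that range at any size were added after seeing the data. Named by rule were the 8 catalytic and PA28 genes, members past 0.5, the extremes of each role, and undetected members. Other members called in C9ko were named after their values were seen. Members and lists were chosen with earlier results of these data known. The alternatives covered scaling, filter, pseudocount, test settings, size rule, files and each replicate.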

Additional observations from a re-analysis of the deposited data

Results flagged for a closer look

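The knockout groups stood on opposite sides of the Control range for 14 of the 48 tested genes and for 1 ratio. The same count was not taken over all tested genes, so the 14 cannot be read as particular to proteasome genes. Leaving the Control range was common. Over all tested genes 50.4% lay above it and 26.3% below it in A2ko, and 46.9% and 26.4% in A8ko. None of these differences between knockout groups was tested, because 1 distinct library stood for A2ko and 1 for A8ko. The gap between the highest and the lowest knockout group was 1.02 log2 units for PSMD6 and 0.80 for PSMB9, with C9ko high and A2ko low in both. With A8ko high and A2ko low, it was 0.70 for PSMG1, 0.66 for PSMC6, 0.62 for PSMA6, 0.56 for PSMA1 and 0.54 for PSMD2. In the same direction, smaller gaps were those of PSMD4 (0.42), PSMB3 (0.42), PSMC4 (0.38), PSMC2 (0.35), PSMD1 (0.32) and PSMD5 (0.18). PSMB10 had a gap of 0.45 between C9ko and A8ko. The summed ratio of PSMB8, PSMB9 and PSMB10 to PSMB5, PSMB6 and PSMB7 had a gap of 0.70, with C9ko above and A8ko below the Control range.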

How the results depend on the processing

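The count of members called in C9ko, 16, became 6 with no filter beyond a TPM above 0, 28 with median-of-ratios scaling, 26 without mitochondrial genes, 9 by eBayes without trend and 26 with all 9 files as separate libraries. Over all tested genes, 5038 of 17100 became 3511 of 42643, 4813 of 17100, 4777 of 17063, 4608 of 17100 and 8166 of 17100 in the same order. Leaving out 1 library gave 4 to 16. The replicate numbers do not pair the samples (correlations of same-numbered deviations of -0.05 and -0.01). With the replicate number as a block 5 members and 3248 of 17100 tested genes were called. For all knockouts the count of 0 became 2 without A2ko and 9 in the fit of all 4 groups. The A2ko count of 2 became 5 with median-of-ratios scaling, 1 without mitochondrial genes and 0 at 1 log2 unit, and 0 to 2 with 1 Control left out. The A8ko count of 1 became 0 at 1 log2 unit and 0 to 2 with 1 Control left out. The mean of logs over the wider gene sets gave 0.05 in A2ko, where the catalytic ratio gave 0.11, then -0.24 in A8ko and 0.24 in C9ko. With 1 library left out the catalytic ratio ranged from 0.08 to 0.15 in A2ko, -0.19 to -0.12 in A8ko and 0.51 to 0.58 in C9ko. Uncalled C9ko differences near 0 changed sign: with median-of-ratios scaling PSMA5 (-0.075), PSMA6 (-0.046), PSMC3IP (-0.11), PSME3IP1 (-0.066) and PSME4 (-0.092), and without mitochondrial genes the same genes (-0.044, -0.014, -0.082, -0.034 and -0.061). With 1 library left out PSMA5 ranged from -0.034 to 0.15, PSMA6 from -0.088 to 0.26, PSMC3IP from -0.13 to 0.15, PSME3IP1 from -0.031 to 0.16 and PSMD2 from -0.12 to 0.018. Of 416 settings of 32 named members, 313 kept direction and side of the threshold, 69 lost the call, 18 gained it and 16 changed sign. The causes were not tested. Depth is unknown, so no counting error is given.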
